A study of Mus musculus with 4 samples.

Results

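The 10 genes described here encode peptide transmitters and hormones that ganglion and amacrine cells of the retina are known to use: Cartpt, Penk, Tac1, Cck, Vip, Npy, Adcyap1, Nmb, Nppb and Gal. They were chosen by symbol, and all 10 were found among the 27999 genes of the table. Their transcripts were counted as unique molecular identifiers (UMIs, each standing for 1 captured RNA molecule) in single retinal cells of C57BL/6 mice aged 3 months. The mice carry a Brn3b::GFP reporter (Brn3b is the product of Pou4f2), and GFP-positive cells were sorted. The labels give 4 retinas in 1 group with no other genotype or treatment, and they do not say how the retinas were pooled. No barcode name ties a cell to a retina, and the 3237 barcodes were therefore described as 1 pooled sample, with no test and no p-value. Ranges in brackets are exact 95% intervals and cover counting error only.

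Peptide genes encode large precursors that are cut into short active peptides, packed into dense-core vesicles and released beside a fast transmitter. In the retina most peptides are classically assigned to amacrine cells, the interneurons of the inner retina that use GABA or glycine. Some mark types of retinal ganglion cells (RGCs), the glutamatergic output neurons whose axons form the optic nerve. Adcyap1, which encodes PACAP, is a classical peptide of the melanopsin (Opn4) ganglion cells that carry light signals to the brain's clock.

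The 3 classes of barcodes were set by UMI counts. An RGC barcode had 1 or more UMIs of Slc17a6 (the vesicular glutamate transporter of RGCs), 3 or more of Rbpms and Slc17a6 together, and at most 1 of Lhx1. There were 950 of them, with a median of 15852 UMIs. An amacrine barcode had no Slc17a6 and 3 or more UMIs of Gad1 (GABA synthesis) and Slc6a9 (glycine transport) together, and 127 met this rule, with a median of 5707 UMIs. A horizontal barcode had no Slc17a6 and 2 or more UMIs of Lhx1, a transcription factor of horizontal cells, and 456 met this rule, with a median of 11082.5 UMIs. Only 1 barcode met both of the latter rules. Over all barcodes the depth ran from 3198 to 53709 UMIs.

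The classes carried markers of their cells, though some listed markers were sparse and some were shared between classes. Among genes that did not set the classes, Pou4f1 was found in 89.6% of RGC barcodes and Nefl in 99.8%, Slc32a1 in 85.8% and Tfap2b in 89.8% of amacrine barcodes, and Onecut2 and Calb1 in 100% of horizontal barcodes. Pou4f2 was found in 59.1% and Isl2 in 41.7% of RGC barcodes, and Onecut1 in 35.7% of horizontal barcodes. Gad2 was found in 40.2% and Tfap2a in 52.0% of amacrine barcodes. Horizontal barcodes also held Tfap2b (100%), Nefl (95.6%) and Slc32a1 (75.2%), and Calb1 was found in 65.4% of RGC barcodes. Chat, the marker of starburst amacrine cells, was at 0 in the amacrine barcodes. The amacrine rule was less pure than the others: 7 of its 127 barcodes held 10 or more UMIs of the Müller glia genes Rlbp1 and Glul, 14 held 5 or more of the bipolar cell genes Pcp2 and Trpm1, and 106 held neither. Free RNA was judged in barcodes that met none of the 3 rules: 141 with 10 or more UMIs of the microglia genes C1qa, C1qb and C1qc, 260 with 10 or more of Rlbp1 and Glul, and 646 with 5 or more of Pcp2 and Trpm1. Their median depths were 3740, 4676.5 and 4174 UMIs, and 658 barcodes fell in no class. Levels are given as CPM, a gene's summed UMIs relative to all UMIs of its class. The counts come from 3′ ends and are not scaled to gene length, so each gene is compared between classes and not with other genes.

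All 10 are protein-coding genes, and they lie on 8 chromosomes of the mouse build GRCm38 (mm10). Penk (chromosome 4, 4133531 to 4138819) and Nppb (chromosome 4, 147985788 to 147987205) share a chromosome at a distance, as do Tac1 (chromosome 6, 7554879 to 7565834) and Npy (chromosome 6, 49822710 to 49829507). The others are Nmb (chromosome 7, 80902227 to 80905076), Cck (chromosome 9, 121489824 to 121495694), Vip (chromosome 10, 5639218 to 5647617), Cartpt (chromosome 13, 99898489 to 99901091), Adcyap1 (chromosome 17, 93199017 to 93206537) and Gal (chromosome 19, 3409915 to 3414544).

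Several of these genes are textbook targets of cyclic AMP signalling through the CRE motif, so the bases before some of their starts are shown. Adcyap1, Nppb, Gal and Nmb are shown because each was higher in RGC barcodes with melanopsin. Vip, Tac1 and Cck are shown because they hold the CRE core in the bases shown. The 2 groups are no contrast: Adcyap1 also holds the core, and Cck was also higher in RGC barcodes with melanopsin. The sequences are RefSeq's for GRCm38.p6, 5′ to 3′ on the gene's strand, with the CRE core TGACG or its reverse complement CGTCA in capitals.
Adcyap1: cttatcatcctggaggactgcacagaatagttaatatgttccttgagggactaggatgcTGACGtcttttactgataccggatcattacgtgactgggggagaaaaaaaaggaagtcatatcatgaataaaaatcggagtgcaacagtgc
Nppb: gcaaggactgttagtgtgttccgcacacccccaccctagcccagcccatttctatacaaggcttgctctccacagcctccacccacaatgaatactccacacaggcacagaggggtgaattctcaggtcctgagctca
Gal: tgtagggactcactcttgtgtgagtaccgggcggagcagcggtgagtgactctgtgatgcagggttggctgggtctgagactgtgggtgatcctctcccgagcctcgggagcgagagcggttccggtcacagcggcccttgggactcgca
Nmb: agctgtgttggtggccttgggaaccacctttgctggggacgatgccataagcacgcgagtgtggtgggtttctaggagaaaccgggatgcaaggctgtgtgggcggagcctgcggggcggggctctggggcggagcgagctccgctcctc
Vip: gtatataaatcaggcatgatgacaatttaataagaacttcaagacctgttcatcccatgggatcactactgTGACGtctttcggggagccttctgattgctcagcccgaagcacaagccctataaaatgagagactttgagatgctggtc
Tac1: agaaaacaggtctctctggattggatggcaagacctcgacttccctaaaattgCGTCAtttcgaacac
Cck: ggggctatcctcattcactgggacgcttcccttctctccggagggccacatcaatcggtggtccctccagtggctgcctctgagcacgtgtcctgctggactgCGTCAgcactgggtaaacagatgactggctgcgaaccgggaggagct
In the order shown they span chr17:93198867-93199016 (plus strand), chr4:147985650-147985787 (plus strand), chr19:3414545-3414694 (minus strand), chr7:80905077-80905226 (minus strand), chr10:5639068-5639217 (plus strand), chr6:7554811-7554878 (plus strand) and chr9:121495695-121495844 (minus strand). Windows of 250 bases before a RefSeq start were read for 9 of the 10 genes; Penk had no entry. TGACG on either strand was found for Adcyap1, Vip, Tac1, Cck and Cartpt, 5 of 9, against 17.8% of 32851 windows. The full palindrome TGACGTCA, which contains that core, was found for Cartpt alone, 112 to 105 bases before its RefSeq start, against 1.55% of windows. That position lies inside Cartpt as GENCODE bounds the gene in the coordinates above. In Vip the core lies 79 to 75 bases before the start, and in Adcyap1 91 to 87. The letters were not found in the windows of Nppb, Nmb, Gal and Npy, and the T-box motif TCACACCT, present in 1.12% of windows, was found in none of the 9.

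Across the 3 classes the genes fell into several patterns. Cartpt had high counts in both RGC and amacrine barcodes, Tac1, Adcyap1 and Nppb were highest in RGC barcodes, Vip was an amacrine gene, and Npy was highest in horizontal barcodes. For Cck, Nmb and Gal the RGC and amacrine levels did not differ beyond counting error, though at equal depth Cck was found in a larger share of RGC barcodes. Penk was higher in amacrine barcodes, but 197 of its 208 UMIs there came from 3 barcodes with glial genes, and without barcodes rich in glial or bipolar genes it was 3.09-fold higher in RGC barcodes. Between RGC and amacrine barcodes, 3 of the 10 were 2-fold or more higher in RGC barcodes (Tac1, Adcyap1 and Nppb), where 12% of 9921 genes were. In the other direction 4 were 2-fold or more higher in amacrine barcodes (Cartpt, Penk, Vip and Npy), against 8.52% of genes. The median ratio of RGC over amacrine CPM was 1.48 over the 10 and 0.98 over all genes tested. Between RGC and horizontal barcodes, 8 of the 9 genes with 100 or more UMIs were higher in RGC barcodes, against 18.8% of 10401 genes, and 1, Npy, was higher in horizontal barcodes, against 8.79%. Between amacrine and horizontal barcodes, 3 of 4 (Cartpt, Penk and Vip) were higher in amacrine barcodes, against 8.20% of 6670 genes, and 0 were higher in horizontal barcodes, against 9.70%.

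**Figure D1:**
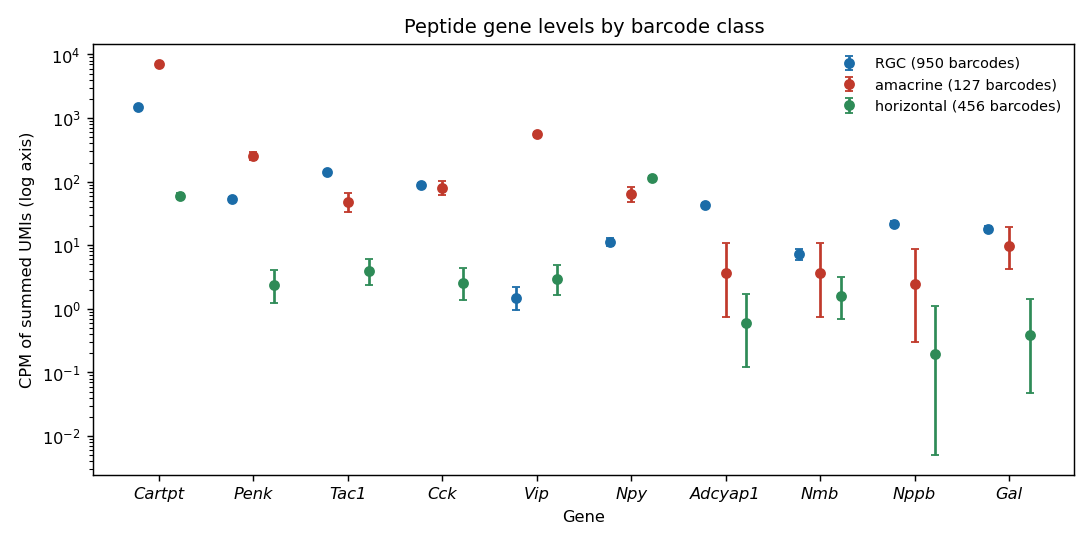
Level of each peptide gene in RGC, amacrine and horizontal barcodes, as CPM on a log axis, with exact 95% Poisson intervals for counting error as bars. Vip stands far higher in amacrine barcodes (560 CPM) than in the others, and Npy is highest in horizontal barcodes (114 CPM).

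Cartpt encodes the precursor of the CART peptides and is known as a marker of ON-OFF direction-selective RGCs. It had 23952 UMIs in RGC barcodes, 1488 CPM (1470 to 1507), against 5735 UMIs in amacrine barcodes, 7007 CPM (6827 to 7191), and 302 in horizontal barcodes, 59.6 CPM (53.1 to 66.8). The amacrine level rests on 1 barcode, which held 3794 of the 5735 UMIs (66.2%) and was also the deepest of the class at 21624 UMIs. With each class's top barcode left out, amacrine barcodes had 1941 Cartpt UMIs and the ratio of RGC over amacrine CPM moved from 0.212 (0.206 to 0.219) to 0.585 (0.559 to 0.613). Under stricter class thresholds, which left 48 amacrine barcodes, the ratio was 0.968 (0.886 to 1.06). Amacrine barcodes thus stayed higher without that barcode, by less, and under the stricter thresholds the classes did not differ beyond counting error. The stricter amacrine rule asks for 6 UMIs of Gad1 and Slc6a9 together. It left out the barcodes with 3794, 340, 223 and 220 Cartpt UMIs, which held 3 or 4.

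A single Cartpt UMI said little about a cell. At full depth a UMI was found in 85.2% of RGC barcodes, 55.9% of amacrine and 47.1% of horizontal barcodes, but also in 28.4% of microglia, 24.2% of Müller glia and 25.7% of bipolar barcodes. With every barcode thinned to 3000 UMIs, the shares were 52.0% in RGC, 45.7% in amacrine and 15.6% in horizontal barcodes, and 19.9%, 16.2% and 17.8% in microglia, Müller glia and bipolar barcodes. The horizontal share was thus at the level of cells that should lack the gene and was read as background. The highest Cartpt level in the microglia, Müller glia and bipolar barcodes was 10.9 per 10000 UMIs. Above it lay 173 of 950 RGC barcodes (18.2%), 21 of 127 amacrine barcodes (16.5%) and 0 of 456 horizontal barcodes, which allows a share of up to 0.658% by the floor of 3 counts.

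In RGC barcodes Cartpt was carried by a minority. The median was 3 UMIs, and the 5 highest barcodes held 1077, 751, 655, 522 and 487. The 168 barcodes with 20 or more UMIs (17.7%) held 87.8% of the class's Cartpt, and the 68 with 100 or more held 69.2%. No single RGC barcode set the level: the highest held 4.50% of the UMIs and the 10 highest 23.0%. Across the 950 RGC barcodes and 12512 genes, the gene whose level varied most like that of Cartpt was Tfap2d, a transcription factor of the AP-2 family (Pearson r = 0.62, and 0.62 without the top Cartpt barcode), followed by Syndig1l (0.46) and A930017K11Rik (0.46). These and the correlations below are over log levels of barcodes that differ in depth and were described as 1 pooled sample.

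Of the 127 amacrine barcodes, 19 held 10 or more Cartpt UMIs. None of the 19 had Slc6a9, which was found in 33.3% of the 108 others, and without Slc6a9 the class rule requires Gad1. Among genes outside the rule, Slc32a1 was found in 84.2% of the 19 and 86.1% of the others, and Tfap2b in 94.7% and 88.9%. After the top barcode, the next held 340, 223, 220 and 182 UMIs, and the lowest of the 19 held 10. Among the 91 amacrine barcodes with 3 or more Gad1 UMIs and no Slc6a9, Cartpt stood at 10346 CPM, and among the 30 with 3 or more Slc6a9 UMIs and no Gad1 at 97.9 CPM (59.8 to 151), near the 78.0 CPM of microglia barcodes.

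Penk encodes preproenkephalin, the precursor of the opioid enkephalins. In RGC barcodes it had 855 UMIs, 53.1 CPM (49.6 to 56.8), spread over 131 barcodes (13.8%), of which 35 held 10 or more and the highest 27 (3.16% of the UMIs). Horizontal barcodes held 12 UMIs, 7 of them in 1 barcode, and microglia barcodes 0 UMIs. At 3000 UMIs a Penk UMI was found in 9.05% of RGC barcodes against 0.219% of horizontal and 0.774% of bipolar barcodes, so the RGC signal lay above the background. The RGC level was 22.4-fold that of horizontal barcodes, and 52.0-fold with the top barcode of each class left out.

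Outside RGC barcodes Penk came from a small set of cells with glial genes. Amacrine barcodes had 208 Penk UMIs, 254 CPM (221 to 291), which put them 4.78-fold (4.09 to 5.57) above RGC barcodes. Of those UMIs, 197 came from 3 barcodes with 110, 51 and 36. Across all classes but RGC, 10 barcodes had 10 or more Penk UMIs, from 16 to 139, of which 3 met the amacrine rule and 6 the Rlbp1 and Glul rule. All 10 held Glul and between 112 and 543 UMIs of Apoe, genes strong in glia. Gad1 was at 0 in all 10, and Rlbp1, a defining marker of Müller glia, was found in 1 of 10 against 98.0% of the 254 other Müller glia barcodes. Their mitochondrial share ran from 7.35% to 14.1%, against a median of 3.62% in amacrine barcodes. With amacrine barcodes rich in glial or bipolar genes left out, or under a cell filter of 500 or more genes and under 10% mitochondrial UMIs, the order turned: RGC barcodes were then 3.09-fold (1.72 to 6.21) or 3.56-fold (1.98 to 7.16) higher than amacrine barcodes, which kept 11 Penk UMIs in each case.

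Tac1 encodes substance P and neurokinin A. RGC barcodes held 2264 UMIs, 141 CPM (135 to 147), in 328 barcodes (34.5%), with 67, 58 and 54 in the 3 highest and 2.96% of the UMIs in the top one. Amacrine barcodes held 39 UMIs, 47.7 CPM (33.9 to 65.1), of which 12, 10, 6 and 5 were in 4 barcodes (30.8% in the top one). RGC barcodes were 2.95-fold (2.15 to 4.16) higher than amacrine and 35.6-fold higher than horizontal barcodes. At 3000 UMIs the shares with a Tac1 UMI were 19.8% in RGC, 7.09% in amacrine, 1.10% in horizontal and 1.92% in Müller glia barcodes. Its likeness over RGC barcodes was highest with Lypd1 (r = 0.49), Tagln3 (0.48) and Calb2, which encodes the calcium-binding protein calretinin (0.45).

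Cck encodes cholecystokinin. It had 1449 UMIs in 240 RGC barcodes (25.3%), 90.0 CPM (85.5 to 94.8), and 66 UMIs in 12 amacrine barcodes, 80.6 CPM (62.4 to 103). The RGC over amacrine ratio of CPM, 1.12 (0.872 to 1.45), showed no difference beyond counting error. In this pooled sample the share of barcodes with Cck was nonetheless higher in the RGC class. At 3000 UMIs a Cck UMI was found in 13.1% (10.97 to 15.4) of RGC and 4.72% (1.75 to 9.999) of amacrine barcodes. The 5 highest amacrine barcodes held 84.8% of the class's Cck UMIs. Horizontal barcodes held 13 UMIs, 2.57 CPM. The highest RGC barcode held 75 Cck UMIs, 5.18% of the class, and the highest amacrine barcode 16, or 24.2%. In RGC barcodes its level was most like that of Igf1 (r = 0.47), Gucy1a3 (0.39) and Pcdh9 (0.38).

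Cck was also found in barcodes with bipolar genes, at 345 UMIs and 117 CPM (105 to 130). These lay in few cells: 21 of 646 held 5 or more, up to 37. Grm6, the glutamate receptor of ON bipolar cells, was found in all 21 and in 92.0% of the 625 others. Prkca, the classical marker of rod bipolar cells, was found in 47.6% of the 21 and in 95.7% of the others. Of the 38 barcodes of this class with no Prkca, 39.5% had Cck, against 3.15% of the 603 with 3 or more Prkca UMIs.

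Vip encodes vasoactive intestinal peptide, which marks types of GABAergic amacrine cells. It was nearly absent from RGC barcodes, where 24 barcodes held 1 UMI each, 1.49 CPM (0.956 to 2.22). Amacrine barcodes held 458 UMIs, 560 CPM (509 to 613), 375-fold (249 to 592) above RGC barcodes. The amacrine counts were in 5 cells with 135, 115, 89, 70 and 39 UMIs, which held 97.8% of the total (29.5% in the top one), and the next held 6. With the top barcode of each class left out, amacrine barcodes kept 323 Vip UMIs. The share of barcodes with a Vip UMI at 3000 UMIs was 6.30% in amacrine, 0.105% in RGC, 0.439% in horizontal and 0.385% in Müller glia barcodes, and the RGC share was read as background. A further barcode, which met no class rule, held 84.

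Vip and Cartpt overlapped in amacrine barcodes. Of the 5 Vip-rich barcodes, 4 had 68, 51, 39 and 17 Cartpt UMIs, above the background level, and the fifth had 1. None of the 5 had Tfap2a, a transcription factor of amacrine cells, and none had Slc6a9, as was so for 91 of the 127 amacrine barcodes, where the class rule then requires Gad1. Tfap2a was found in 66.7% of the 15 other barcodes with 10 or more Cartpt UMIs, so the Cartpt-rich barcodes with and without Vip differed in this gene as well. With 5 barcodes this is a description of those cells.

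Npy encodes neuropeptide Y. Horizontal barcodes had 579 UMIs, 114 CPM (105 to 124), spread over 214 of 456 barcodes (46.9%), with 17 in the highest and 2.94% of the UMIs in it. RGC barcodes had 184 UMIs in 40 barcodes, 11.4 CPM (9.84 to 13.2), and 58, 31 and 20 of these were in 3 barcodes. Horizontal barcodes stood 10.0-fold (8.46 to 11.9) above RGC barcodes. The ratio of RGC over horizontal CPM moved to 0.0705 without the top barcode of each class, a wider gap. At 3000 UMIs a Npy UMI was found in 23.7% of horizontal barcodes against 1.37% of RGC, 1.42% of microglia and 0.464% of bipolar barcodes. The horizontal signal was therefore not the level shared by all cells.

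Horizontal barcodes with and without Npy were close in depth and in the levels of horizontal cell genes. The 214 with Npy had a median of 11259 UMIs and the 242 without it 10681.5. Onecut2 stood at 732 CPM with Npy and 737 without, Calb1 at 3528 and 3357, and Prox1 at 513 and 567. Of the 70 barcodes with 2 or more Lhx1 UMIs that no class took because of Slc17a6 UMIs, 44.3% had Npy. In amacrine barcodes Npy rested on 3 cells with 28, 20 and 4 UMIs (53.8% in the top one). The second of them also held 56 UMIs of Pcp2, a bipolar cell gene. Without each class's top barcode, the ratio of RGC over amacrine CPM moved from 0.180 to 0.265.

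Npy in RGC barcodes was also held by few cells. Its top barcode held 31.5% of the UMIs, and the 10 highest held 83.2%. That top barcode, with 29168 UMIs, had 7 Slc17a6 UMIs but also 2 of Gad1 and 9 of Tfap2b, and 32 of Tac1. The other 5 with 5 or more Npy UMIs held no Gad1, and all 5 held Cck, at 2, 16, 2, 12 and 6 UMIs. Npy and Nmb were the 2 of 9 members whose top RGC barcode held 10% or more of the UMIs, against 0.328% of 9753 genes. In amacrine barcodes this was so for all 3 members with enough UMIs, Cartpt, Penk and Vip (66.2%, 52.9% and 29.5%), against 3.97% of 1510 genes. In horizontal barcodes it was so for 0 of 2 members, Cartpt and Npy, against 0.332% of 6021 genes.

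**Figure D2:**
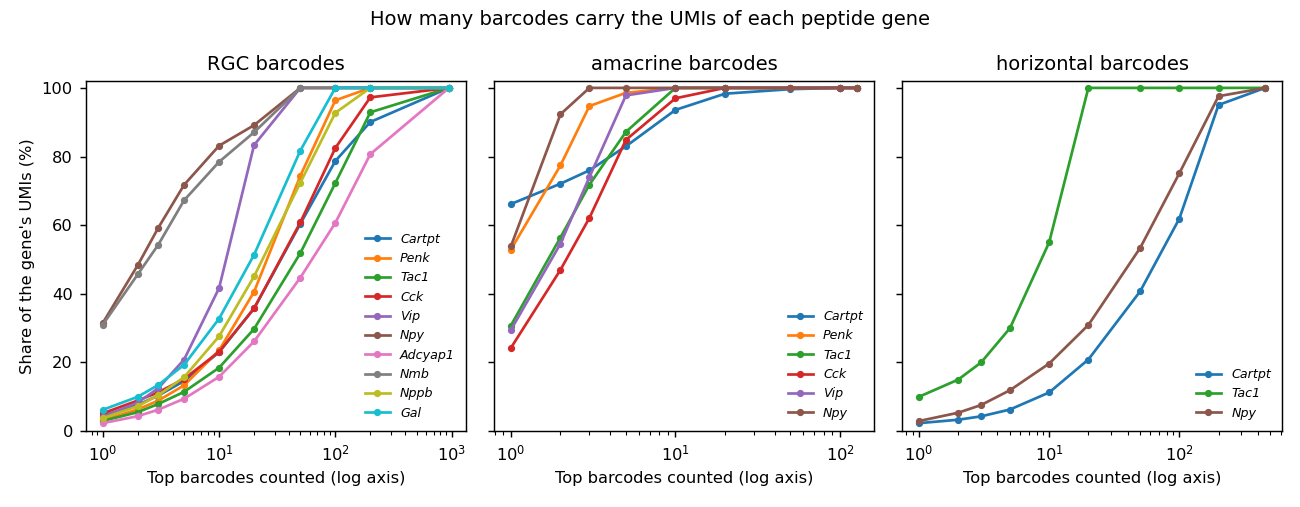
Cumulative share of each peptide gene's UMIs, in percent, held by its highest barcodes (number of barcodes on a log axis) in RGC, amacrine and horizontal barcodes, for genes with 20 or more UMIs in the class. Npy and Nmb rise early in RGC barcodes, where their 3 highest barcodes hold 59.2% and 54.3%, and Cartpt starts at 66.2% in amacrine barcodes.

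Adcyap1 encodes PACAP. It had 689 UMIs in 333 RGC barcodes (35.1%), 42.8 CPM (39.7 to 46.1), and the count was spread, with 16 in the highest barcode and 2.32% of the UMIs in it. Amacrine and horizontal barcodes held 3 UMIs each. RGC barcodes were 11.7-fold (3.98 to 56.8) above amacrine and 72.3-fold above horizontal barcodes. At 3000 UMIs the share with an Adcyap1 UMI was 10.8% in RGC barcodes, 1.57% in amacrine and 0.769% in Müller glia barcodes, and 0 of 456 horizontal barcodes had one.

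Nppb encodes brain natriuretic peptide. RGC barcodes held 344 UMIs in 125 barcodes (13.2%), 21.4 CPM (19.2 to 23.8), with 13, 12 and 11 in the 3 highest and 3.78% of the UMIs in the top one. Amacrine barcodes held 2 UMIs and horizontal barcodes 1, and microglia barcodes 0. The RGC level was 8.75-fold (2.40 to 72.5) above that of amacrine barcodes. After thinning to 3000 UMIs, Nppb was found in 5.26% of RGC barcodes and in none of the horizontal, microglia, Müller glia or bipolar barcodes.

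Gal encodes galanin. RGC barcodes held 290 UMIs in 100 barcodes (10.5%), 18.0 CPM (16.0 to 20.2), and the highest held 18 (6.21%). Horizontal barcodes held 2 UMIs. The 8 amacrine UMIs of Gal were all in 1 barcode, and the RGC over amacrine ratio of 1.84 (0.923 to 4.31) did not exceed counting error. With that barcode left out amacrine barcodes were at 0 UMIs, and RGC barcodes were at least 4.54-fold higher, with 3 counts set as the amacrine floor.

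Nmb encodes neuromedin B, a bombesin-like peptide. It had 116 UMIs in 35 RGC barcodes (3.68%), 7.21 CPM (5.96 to 8.65), and 36, 17 and 10 of them were in the 3 highest barcodes (31.0% in the top one). Amacrine barcodes held 3 UMIs and horizontal barcodes 8. At 3000 UMIs a Nmb UMI was found in 1.26% of RGC barcodes and 2.13% of microglia barcodes, so single UMIs were at the background. The 8 RGC barcodes with 3 or more Nmb UMIs all held Opn4, from 22 to 73 UMIs, as well as Eomes, Adcyap1, Nppb and Gal.

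The 4 genes Adcyap1, Nppb, Gal and Nmb had likeness partners in common over RGC barcodes. Nppb was most like Opn4, the melanopsin gene (r = 0.67), Ifitm10 (0.61) and Gna14, a G protein subunit (0.60). Nmb was most like Cd24a (0.67) and Opn4 (0.48), Adcyap1 most like Gna14 (0.50), Lsp1 (0.48) and Cd24a (0.43), and Gal most like Cd24a (0.45) and Gpx3 (0.40). Without the top Nmb barcode, its r with Cd24a was 0.63. Penk was most like Prdm8 (0.47), Zic1 (0.43) and Nfib (0.43), all genes of transcription regulators. The values for Npy (0.24 at most) and Vip (0.16 at most) were weak and are no finding.

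Pairs of peptide genes were then counted in the 892 RGC barcodes that held 8000 or more UMIs, each thinned to 8000; 58 shallower ones were left out. A member's UMI was found in most of them: 61 barcodes (6.84%) had none of the 10 genes, 294 had 1, 371 had 2 and 2 had 6. With Cartpt not counted, 264 (29.6%) had none. For each of the 45 pairs the number of barcodes with both genes was set against the number that independence of the pair would give, and 28 pairs had 5 or more expected. The median ratio was 0.940 over the member pairs and 1.00 over background gene pairs. The background was all pairs, with 5 or more expected, of the 9884 genes found in 2% to 60% of these barcodes. Cartpt, found in 676 barcodes, lay above that range, and Vip, found in 11, lay below it. Cartpt was found with 8 of the other 9 genes at 0.866 to 1.18 times independence, for example 183 barcodes with Tac1 against 184.9 expected and 139 with Adcyap1 against 140.2. With Vip it shared 5 barcodes against 8.34. A gene found in 676 of 892 barcodes cannot reach 2 times independence with any other gene. Ratios near 1 with Cartpt therefore do not show that it is independent of these genes. A single Cartpt UMI is near the background, and with 3 or more UMIs counted as detection Cartpt and Adcyap1 shared 5 barcodes against 9.15 (0.546 times) and Cartpt and Nppb 5 against 7.56 (0.661 times).

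Penk, Tac1 and Cck were largely found in separate RGC barcodes. Penk and Tac1 shared 6 barcodes where 27.1 were expected, and Penk and Cck shared 7 against 20.8. Tac1 and Nmb shared 2 against 5.20. These were the 3 pairs 2-fold or more below independence, against 1.47% of background gene pairs. Tac1 and Cck shared 32 against 51.2. When only 3 or more UMIs counted as detection, a setting chosen after the data were seen, Penk and Tac1 shared 0 barcodes against 9.77, Penk and Cck 0 against 5.62, and Tac1 and Cck 1 against 11.2. These were then the 3 pairs of 9 tested that were 2-fold or more below independence, against 2.67% of gene pairs in the same detection range. At that level 273 barcodes held one or more of these genes (66 Penk, 132 Tac1 and 76 Cck): 272 held a single one, 1 held 2 and 0 held all 3. At 1 or more UMIs, 440 of 485 held a single one. The trio was picked after these values were seen, and the counts are a description.

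**Figure D3:**
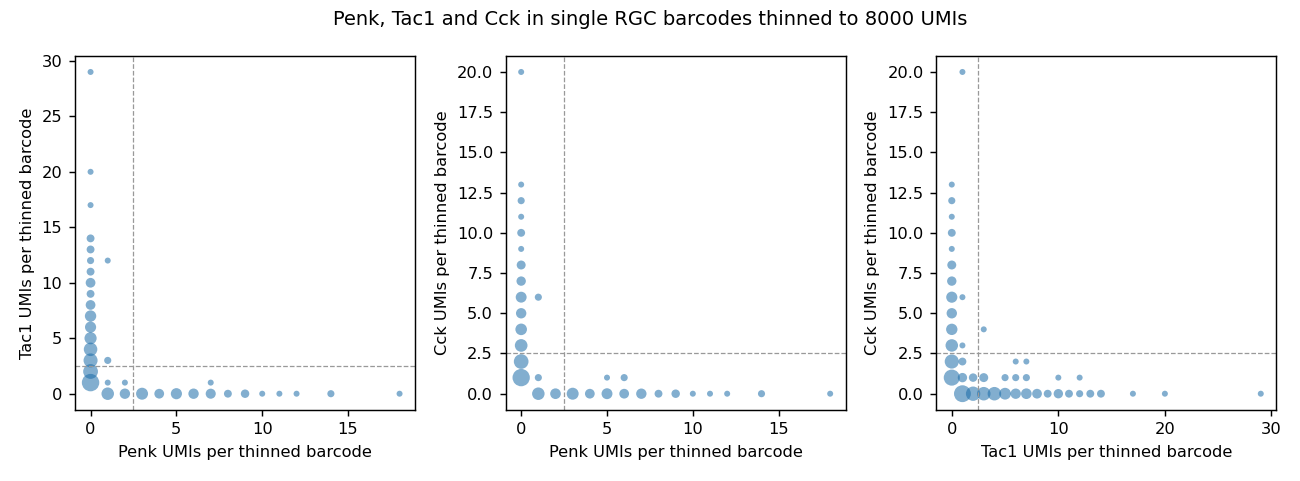
UMIs of Penk, Tac1 and Cck in RGC barcodes thinned to 8000 UMIs, as 3 pairwise plots in which the area of a point grows with the number of barcodes at that position and dashed lines mark 3 or more UMIs. The points lie along the axes, and a single barcode lies beyond both lines, in the plot of Tac1 and Cck.

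Adcyap1, Nppb and Gal showed the opposite pattern. Nppb and Gal shared 19 barcodes against 5.60 expected (3.40 times), and Adcyap1 and Gal shared 27 against 13.3 (2.03 times). These were the 2 pairs at 2 times or more, against 0.0921% of background gene pairs. Adcyap1 and Nppb shared 30 against 16.2, Cck and Nppb 30 against 16.4, and Penk and Gal 14 against 7.1, each just under 2 times. Adcyap1 and Gal were between 1.43 and 1.82 times under each other setting that counted 1 UMI as detection, with 29 against 20.3 at 12000 UMIs, where Nppb and Gal shared 24 against 7.61. With 3 or more UMIs as detection the numbers expected were all under 5: Adcyap1 and Nppb shared 10 against 0.490, Nppb and Gal 6 against 0.341, and Adcyap1 and Gal 5 against 0.413. Nmb had too few barcodes for a call, with 11 shared with Adcyap1 against 3.94, 8 with Nppb against 1.66 and 8 with Gal against 1.36.

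**Figure D4:**
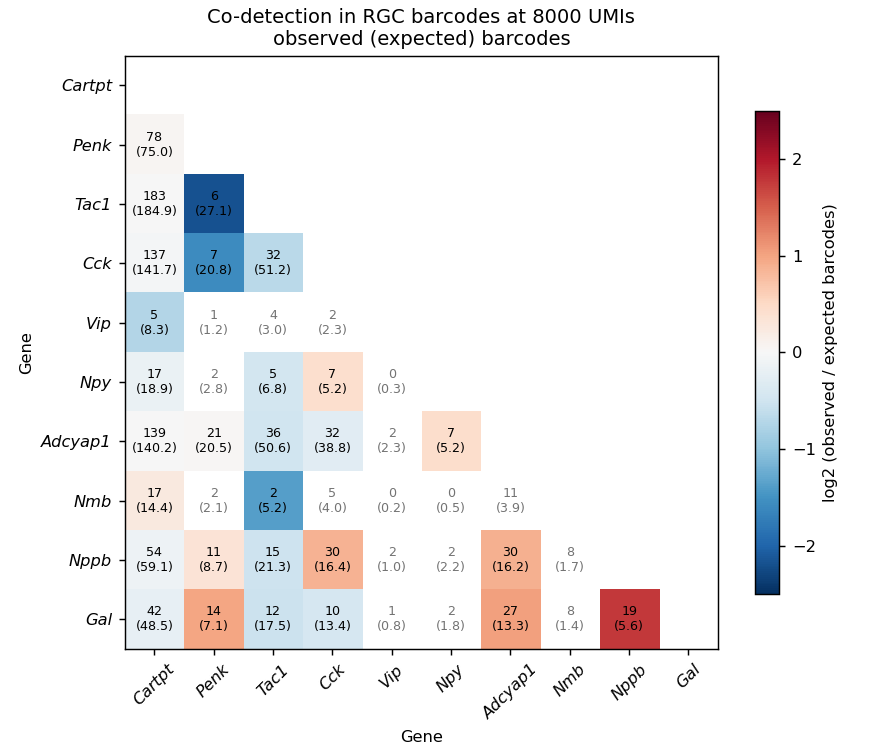
Barcodes with both genes of a pair among 892 RGC barcodes thinned to 8000 UMIs, with the number expected from independence in brackets and the log2 ratio as colour for pairs with 5 or more expected. Penk with Tac1 (6 against 27.1) is the lowest ratio and Nppb with Gal (19 against 5.60) the highest.

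To place the genes among known RGC types, the same 892 barcodes were divided by a UMI of 12 marker genes after thinning, and full counts were summed on each side. Vip had too few UMIs, which left 9 members. In the 90 barcodes with Opn4, 5 of 9 were 2-fold or more higher (Nmb, Nppb, Gal, Cck and Adcyap1), against 2.17% of 9694 genes, and the other 4 were 2-fold or more lower, against 4.06%. Nppb stood at 141 CPM with Opn4 and 7.30 without, a ratio of 19.3 (15.2 to 24.5). Nmb stood at 57.3 and 1.56 CPM, a ratio of 36.7 (22.9 to 61.3), with 38.3% of the UMIs of the Opn4 side in 1 barcode. Gal, Cck and Adcyap1 were 5.19-fold, 4.77-fold and 3.68-fold higher. Cartpt stood at 209 CPM with Opn4 and 1656 without, a ratio of 0.126.

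Eomes and Tbx20, T-box transcription factors of overlapping sets of RGC types, gave a similar list. In the 115 barcodes with Eomes, 4 members were higher (1.79% of genes): Nmb 19.1-fold, Nppb 10.0-fold, Gal 3.51-fold and Adcyap1 2.87-fold. For Nmb, 42.4% of the UMIs of the Eomes side were in 1 barcode. Adcyap1 was found at full depth in 34.8% of barcodes with Eomes and 36.3% of those without. Cartpt, Penk and Npy were lower, against 2.94% of genes. In the 64 with Tbx20, 5 members were higher (2.16% of genes), led by Nppb at 9.35-fold (7.47 to 11.7) and Cck at 5.29-fold (4.71 to 5.94). Nmb was 4.12-fold higher there, with 60.7% of its 28 UMIs on that side in 1 barcode. Penk had 3 UMIs in those 64 barcodes, and Cartpt and Npy were also lower there (4.96% of genes). The 49 barcodes with Spp1, the osteopontin gene of alpha RGCs, had Cck 5.02-fold and Nppb 2.68-fold higher (1.45% of genes), with Penk, Tac1, Npy and Nmb lower (2.92%).

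Penk and Cartpt were tied to other markers. Of the 111 barcodes with Neurod2, a basic helix-loop-helix transcription factor, Penk stood at 207 CPM against 30.4 without it, a ratio of 6.82 (5.93 to 7.83), and Cartpt was 2.36-fold higher (0.784% of genes). Tac1 and Cck were lower there, at ratios of 0.148 and 0.144, as were Npy and Nmb (2.80% of genes). In the 33 barcodes with Zic1, a zinc-finger gene, Penk stood at 403 CPM against 39.3, a ratio of 10.2 (8.77 to 11.9), the 1 member higher (1.70% of genes). Of the 4 lower members there (5.94% of genes), Cartpt had a ratio of 0.286. Penk was thus higher with both markers, while Cartpt was higher with Neurod2 and lower with Zic1.

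Among the 3 POU4F genes, transcription factors of RGC identity, Pou4f1 and Pou4f3 had the same higher members, and Pou4f2 differed from them. Barcodes with Pou4f1 (741) had Penk 12.4-fold and Cartpt 2.06-fold higher (1.74% of genes), and Cck, Npy, Adcyap1, Nmb, Nppb and Gal lower (1.73%). Nppb stood at 8.72 CPM with Pou4f1 and 79.8 without. On the side without Pou4f1, 1 barcode held 58% of the Npy UMIs and 1 held 45% of the Nmb UMIs. Pou4f3 (250 barcodes) went with Cartpt 3.04-fold and Penk 2.28-fold higher (0.237% of genes), with Npy, Nmb, Nppb and Gal lower (0.897%). Pou4f2 (371 barcodes), the gene behind the reporter, had 0 members higher (0.475% of genes) and 3 lower (0.258%): Cartpt, Npy and Nmb. On the side without Pou4f2, 1 barcode held 38.7% of the Npy UMIs and 1 held 37.1% of the Nmb UMIs. Whether the Npy and Nmb calls hold without those barcodes was not tested. Cartpt stood at 610 CPM with Pou4f2 and 2083 without, a ratio of 0.293 (0.283 to 0.303).

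Foxp2, Tbr1 and Lmo2 each went with 1 higher member. In the 103 barcodes with Foxp2, a forkhead gene of F-RGCs, Gal was 2.55-fold higher (0.609% of genes), and Cartpt, Penk, Tac1, Cck, Npy and Nppb were lower (3.53%). In the 65 with Tbr1, Npy was 6.67-fold higher (0.712% of genes), but 96.7% of its UMIs there were in 1 barcode. Penk had 1 UMI in those 65, and Cck, Nmb, Nppb and Gal were lower too (2.88% of genes). In the 27 with Lmo2, Nmb was 2.87-fold higher (2.46% of genes), with all 10 of its UMIs there in 1 barcode, and Cartpt was lower (4.87%).

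**Figure D5:**
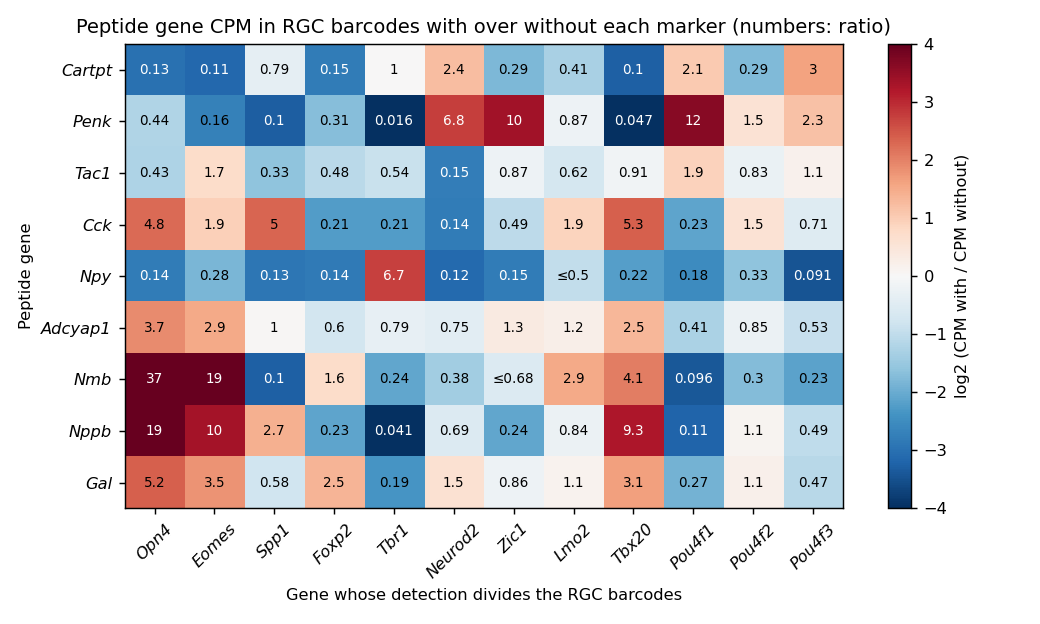
Ratio of each peptide gene's CPM in RGC barcodes with a UMI of a marker gene to that in barcodes without it, with the ratio printed and its log2 as colour; the colour scale ends at 4. The columns for Opn4, Eomes and Tbx20 show Nmb and Nppb higher, and the columns for Neurod2, Zic1 and Pou4f1 show Penk higher.

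Of 20 receptor genes listed for the families of these peptides, 19 were found in the table and 4 had 100 or more UMIs over the 3 classes. Vipr2, a receptor for both VIP and PACAP, had 556 UMIs in 348 RGC barcodes (36.6%), 34.6 CPM (31.7 to 37.5), against 14.7 CPM in amacrine and 1.19 CPM in horizontal barcodes. Adcyap1r1, the PACAP receptor, had 108 RGC UMIs, 2 amacrine UMIs and 0 horizontal UMIs, and Npy1r, a receptor for neuropeptide Y, had 109, 0 and 3. Npr2, a natriuretic peptide receptor, stood at 11.9 CPM in RGC and 26.1 CPM in horizontal barcodes. Of these 4, 2 were 2-fold or more higher in RGC than amacrine barcodes (12% of genes), Vipr2 at a ratio of 2.36 (1.34 to 4.59) and Adcyap1r1 at 2.75 (0.742 to 23.0), an interval that includes 1, and 0 were lower (8.52%). Against horizontal barcodes 3 were higher in RGC barcodes (18.8% of genes) and 1, Npr2, was lower (8.79%). The opioid, cholecystokinin and galanin receptors on the list had at most 20 UMIs each over the 3 classes.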

How the data were processed

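Per the labels' protocols, dissociated retinas were sorted for GFP and 10x Chromium 3′ V2 libraries were prepared. The submitters' processing notes name Cell Ranger, Seurat 2.2 and mm10. Neither the aligner settings nor the cell calling is given in the sources used here. The authors deposited raw counts, whole UMIs of each gene in each barcode. All 3237 barcodes were used, with Python 3.11.15, numpy 2.4.6, scipy 1.17.1 and pandas 2.3.3. Doublets were kept in the main values. As an alternative, Scrublet in scanpy 1.11.5 called 58 barcodes (1.79%), 28 of them RGC barcodes.

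UMIs were summed per class and scaled to CPM. Shares carry Clopper-Pearson, CPM Poisson and ratios conditional exact 95% intervals, for counting error only. A fold against 0 UMIs, and the limit that a count of 0 allows, used a floor of 3 counts. A class comparison, or a marker division, was tested on genes with 100 or more UMIs over both sides, and a gene was called at 2-fold. Thinning was without replacement with a fixed seed. All 10 genes are named. For likeness, the 3 genes with the highest Pearson r of log(1 + UMIs per 10000) were taken among genes found in 20 or more RGC barcodes, and list genes were named at 100 or more UMIs. Gene coordinates come from the GENCODE annotation of GRCm38 and promoter windows from RefSeq. The computation was tested on simulated data.

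A planned test on counts per retina was not run, because no barcode maps to a retina. The 10 genes, the classes, the lists and the markers were chosen with earlier results of these data known. The alternatives were another cell filter, doublet removal, stricter thresholds (6 UMIs for RGC and amacrine, 4 for horizontal), RGC barcodes without Gad1 or Slc6a9, other thinning, and leaving out each top barcode. Leaving out amacrine barcodes with glial or bipolar genes and counting detection from 3 UMIs were chosen after seeing the data.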

Additional observations from a re-analysis of the deposited data

How the results depend on the processing

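The counts of genes 2-fold or more higher in RGC than amacrine barcodes were between 2 and 4 under every setting, against 3 in the text. Those higher in amacrine barcodes were 3 or 4, except 2 under stricter class thresholds. Pairs co-detected at 2 times or more of independence were 2 in the text, 1 at 12000 UMIs, 1 without Scrublet doublets and 0 under stricter thresholds, where Nppb and Gal were at 3.40 times with 4.12 expected, too few for a call. The count was also 0 at 3 or more UMIs, where 9 pairs had 5 or more expected and Nppb and Gal, at 17.6 times, and Adcyap1 and Gal, at 12.1 times, did not. Pairs 2-fold or more below independence were 2 or 3 throughout. Penk was the 1 gene whose order reversed, with RGC over amacrine ratios of 3.56 under the cell filter (500 or more genes, under 10% mitochondrial UMIs) and 3.09 without barcodes rich in glial or bipolar genes. In the text 3 barcodes held 197 of its 208 amacrine UMIs. Of the single values, 333 stayed within their error, 50 moved without reversing and 2 reversed.

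The amacrine values rest on 127 barcodes of low depth, and 48 under stricter thresholds. No paired analysis was possible because the barcodes carry no retina number. For the same reason no replicate was left out, and cells of 1 retina cannot be told apart from those of another. A UMI count of 0 limits detection at this depth, not expression.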

Other observations

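Of 17 other peptide genes listed, 5 had 100 or more UMIs over the 3 classes. Sst, the somatostatin gene, had 261 UMIs in amacrine barcodes, and 260 of them were in 1 barcode. Crh had 103 UMIs in RGC barcodes, with 46 in 1 barcode (44.7%), 0 in amacrine and 1 in horizontal barcodes. Pomc, the precursor of melanocortins and endorphin, had 224 UMIs in RGC barcodes, 13.9 CPM (12.2 to 15.9), and 205 in horizontal barcodes, 40.5 CPM (35.1 to 46.4), a ratio of horizontal over RGC CPM of 2.91 (2.39 to 3.53). Vgf, a granin-like gene, had 883 UMIs in RGC barcodes, 54.9 CPM (51.3 to 58.6), and 75 in amacrine barcodes, 91.6 CPM (72.1 to 115). Its level was thus 1.67-fold (1.30 to 2.12) higher in amacrine than in RGC barcodes. Horizontal barcodes had 16 Vgf UMIs, 3.16 CPM. Calca had 164 UMIs in RGC barcodes, with 21 in 1 of them. Of the 5, 0 were 2-fold or more higher in RGC than in amacrine barcodes (12% of 9921 genes) and 1, Sst, was lower (8.52%).

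Barcodes in no class held peptide counts of the same kinds. Among the 658, 17 had 10 or more Cartpt UMIs, with 236 in the highest, and 92 had Npy. A barcode with 4 Vip UMIs among them held 118 Cartpt UMIs and 17 of Tfap2b.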
